A study of Mus musculus with 2 samples.

Results

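The genes described here are 10 members of the BCL2 family, the proteins that decide whether the outer membrane of the mitochondrion stays closed or is opened during apoptosis. They were taken by symbol: the anti-apoptotic genes Mcl1, Bcl2l1 and Bcl2, the effector genes Bax and Bak1, and the BH3-only genes Bid, Bad, Bcl2l11, Bbc3 and Pmaip1. All 10 were found among the 38087 gene identifiers of the deposited tables, and all were listed above 0 in at least 1 of the libraries. RNA came from parietal cells, which secrete the acid of the stomach, sorted from C57BL/6 mice, an inbred strain. One library came from mice on a high fat diet (HFD) and the other from mice on a control diet. The sources used here do not give the ages and numbers of mice, the length of feeding, the makeup of the diets or the sort markers.

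The anti-apoptotic proteins hold the effectors in check. The effectors BAX and BAK form pores in the mitochondrial outer membrane and so release cytochrome c, which activates caspases. The BH3-only proteins respond to particular kinds of stress, and they either block the anti-apoptotic proteins or activate the effectors directly. The balance between these classes, and not the level of a single gene, sets how readily a cell dies. In the gastric glands parietal cells are replaced slowly from progenitors, and cell death is part of that turnover. Much of the family is controlled at the protein level, by cleavage, phosphorylation and rapid degradation, which RNA measurements do not show.

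The family is defined by short shared motifs, some of which are shown here. The roles by which the levels are grouped below were assigned gene by gene and not read from these stretches. The BH3 motif is present in all classes. It was searched in frame, on the coding strand, as CTNNNNNNNNNNGGNGAN in the longest annotated coding sequence of each gene (GENCODE release M21, GRCm38, the assembly also called mm10). Of the 10 members 8 held this pattern, Pmaip1 with 2 matches. In Bbc3 the motif has an alanine codon in place of the glycine codon (CTNNNNNNNNNNGCNGAN) and in Bad a serine codon (CTNNNNNNNNNNAGNGAN). The capitals mark the match.
Mcl1: gagaccCTGCGGCGCGTGGGCGACggcgtg
Bcl2l1: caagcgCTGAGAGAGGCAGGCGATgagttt
Bcl2: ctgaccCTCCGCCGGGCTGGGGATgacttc
Bax: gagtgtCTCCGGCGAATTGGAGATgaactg
Bak1: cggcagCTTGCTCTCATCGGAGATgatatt
Bid: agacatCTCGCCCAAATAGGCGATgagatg
Bad: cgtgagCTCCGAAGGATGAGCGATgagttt
Bcl2l11: caggagCTGCGGCGGATCGGAGACgagttc
Bbc3: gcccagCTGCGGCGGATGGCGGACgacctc
These patterns are loose: of 21584 coding sequences, 4534 held the glycine form in frame, 5090 the alanine form and 4366 the serine form, so a match alone does not mark the family. On the plus strand lie the stretches of Mcl1 (chr3:95659430-95659459, exon 1), Bad (chr19:6950786-6950815, exon 3), Bcl2l11 (chr2:128147144-128147173, exon 3) and Bbc3 (chr7:16313767-16313796, exon 3). On the minus strand lie those of Bcl2l1 (chr2:152829700-152829729, exon 2), Bcl2 (chr1:106712578-106712607, exon 1), Bax (chr7:45466000-45466029, exon 3), Bak1 (chr17:27022534-27022563, exon 4) and Bid (chr6:120897292-120897321, exon 4).

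The BH1 motif is found in the members with several BH domains, whose proteins hold a groove for the BH3 helix, and not in the BH3-only proteins. It was searched in the same way as AACTGGGGNNGN and was found in 4 of the 10 members and in 0.255% of all coding sequences. The 4 are shown here. These letters were not in the coding sequences of Bak1 and the BH3-only members, which says nothing else about those genes.
Mcl1: gtaacaAACTGGGGCAGGattgtg
Bcl2l1: ggagtaAACTGGGGTCGCatcgtg
Bcl2: ggggtgAACTGGGGGAGGattgtg
Bax: aacttcAACTGGGGCCGCgtggtt
Capitals again mark the match. The stretches lie in exon 2 of Mcl1 (chr3:95659844-95659867), exon 2 of Bcl2l1 (chr2:152829568-152829591), exon 1 of Bcl2 (chr1:106712446-106712469) and exon 4 of Bax (chr7:45465225-45465248).

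Each diet was represented by 1 library, so the diets could not be compared by a test, and what follows compares 2 libraries. Their depth was estimated at 25.5 M reads in HFD and 9.84 M reads in control, from the steps between low values. Levels are in RPKM, reads per kilobase of exon and per M reads, so levels of different genes can be set side by side. No value lies between 0 and 1 RPKM, so a 0 was read as at or below 1 RPKM, but it may also be a failed estimate, since genes that most cells use are listed at 0 as well. Brackets hold approximate 95% intervals for counting error alone, based on estimated reads. The label was checked against 11 parietal markers, all of which were listed in both libraries. They summed to 11487 RPKM in HFD and 9392 RPKM in control, mostly from Atp4a and Atp4b. Of the 11, 9 were higher and 2 lower in HFD. Over 2-fold higher were 4, up to a ratio, HFD over control, of 2.96 for Aqp4. Among protein-coding genes listed in both libraries, 47.8% were higher and 7.00% over 2-fold higher. Markers of other gastric cells were listed as well and differed between the libraries. The 5 pit cell markers summed to 36056 RPKM in HFD and 14515 RPKM in control, 4 of them higher and 1 lower in HFD. Gkn1 was the largest part of that sum (21736 RPKM in HFD and 5021 RPKM in control). The 5 chief cell markers summed to 48583 RPKM in HFD and 106833 RPKM in control, 1 higher and 4 lower in HFD. Most of that sum was Pgc (45624 RPKM in HFD and 102292 RPKM in control). In both libraries the chief sum was above the parietal sum. The 4 neck cell markers, all lower in HFD, summed to 7524 RPKM in HFD and 8586 RPKM in control. The 5 endocrine markers, 1 higher and 4 lower in HFD, summed to 1210 RPKM in HFD and 8284 RPKM in control. The part of these cells in the values below was not tested. In such samples fewer cells of a type and less RNA per cell cannot be told apart.

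Mcl1 was the most abundant member in both libraries and was higher in the HFD library, together with the BH3-only gene Pmaip1, while the effector gene Bax was lower there. Bcl2l1, Bak1 and Bid had ratios between 0.860 and 0.951, and Bcl2 and Bbc3 were listed at 0 in the HFD library. Of the 8 members listed in both libraries, 4 were higher in HFD, against 47.8% of 9997 protein-coding genes listed in both. Over 2-fold higher were 2 of the 8, against 7.00% of these genes, and over 2-fold lower was 1 of the 8, against 12.5%. With the genes listed at 0 in 1 library included, which pass 2-fold by construction, 4 of 10 members were higher, against 44.0% of 11976 protein-coding genes listed in either library. On that basis 2 of 10 were over 2-fold higher, against 9.92%, and 3 of 10 over 2-fold lower, against 22.8%; 2 of these 3 calls are the listings at 0 of Bcl2 and Bbc3. Counts this small are not a result about the family. The median on the log2(RPKM + 1) scale, HFD minus control, was -0.08 over the 10 members and 0.08 over the 8, beside -0.11 for protein-coding genes listed in either library and -0.03 for those listed in both. The counting interval lay wholly above 1 for 4 of the 8, against 37.8%, and wholly below 1 for 2, against 42.1%.

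**Figure D1:**
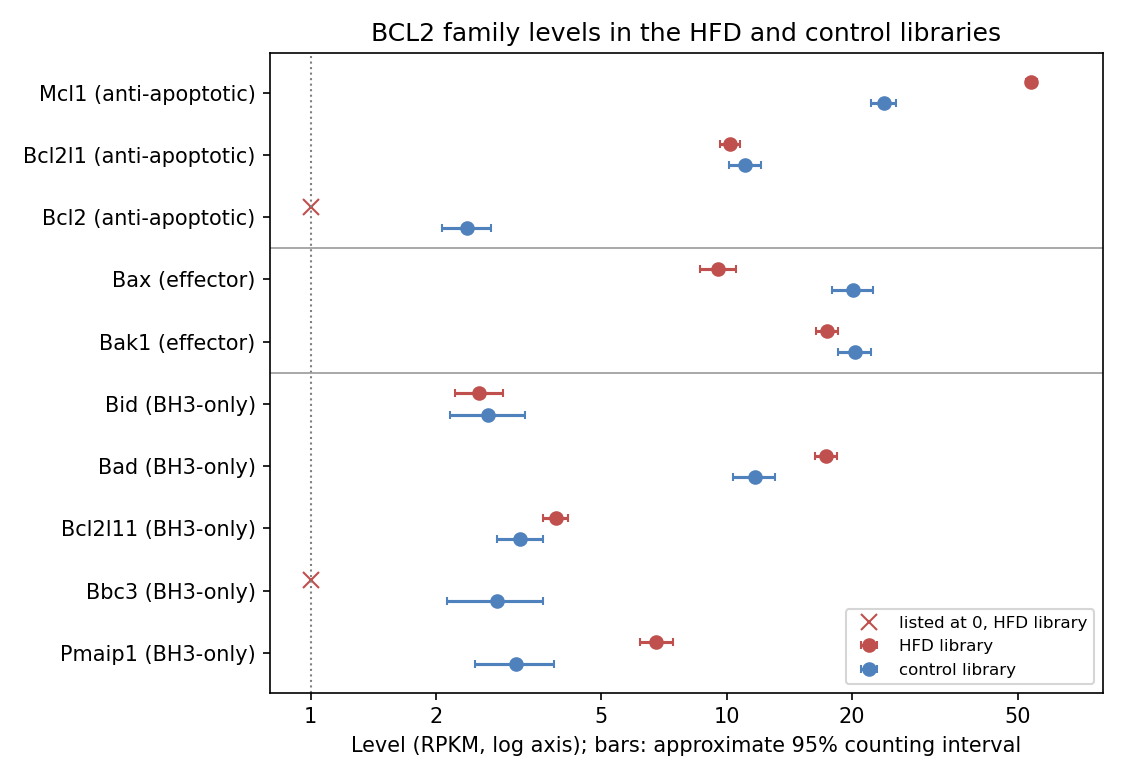
Level of each BCL2 family member in RPKM (log axis) in the HFD library (red, upper point) and the control library (blue, lower point), grouped by role; bars are approximate 95% counting intervals, the dotted line is the floor of 1 RPKM and crosses mark genes listed at 0. Mcl1 stands at 54.0 RPKM in HFD and 23.9 RPKM in control, above every other member in its library.

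Among the anti-apoptotic genes, Mcl1 (ENSMUSG00000038612, chr3:95658788-95663176, plus strand) encodes a protein of very short half-life that binds BAK and most BH3-only proteins. It stood at 54.0 RPKM in HFD (52.5 to 55.6) and 23.9 RPKM in control (22.3 to 25.6), from about 4706 estimated reads in HFD and 803 in control. The ratio was 2.26 (2.10 to 2.44), so the whole counting interval lay above 2. Bcl2l1 (ENSMUSG00000007659, chr2:152780668-152831728, minus strand) encodes BCL-XL and, by alternative splicing, the pro-apoptotic BCL-XS, which values per gene do not separate. It stood at 10.2 RPKM in HFD (9.62 to 10.8) and 11.0 RPKM in control (10.1 to 12.1). Its ratio of 0.922 (0.830 to 1.03) had an interval that contained 1, and it was 1.13 with the libraries scaled to the total of protein-coding genes. Bcl2 (ENSMUSG00000057329, chr1:106538178-106714274, minus strand) is the founding member of the family and is best known from lymphocytes. It was listed at 0 in HFD and stood at 2.37 RPKM in control (2.07 to 2.71), the lowest level of the 10 members there. At the estimated depth 1 RPKM of Bcl2 equals about 233 reads in the HFD library, so a listing at 0 does not mean that no read was present.

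Such a 0 may not be a low level. Polr2d, which encodes a subunit of RNA polymerase II, was listed at 0 in HFD against 13.2 RPKM in control, and Emc2, a subunit of a membrane insertion complex, at 0 in HFD against 9.80 RPKM in control. In all, 146 protein-coding genes of at least 5 RPKM in control were listed at 0 in HFD, and 20 in the other direction. No ratio is therefore given for Bcl2 and Bbc3. Of the protein-coding genes listed in either library, 12.4% were listed at 0 in HFD only, beside these 2 of 10 members. Of 10 leukocyte markers 7 were listed at 0 in both libraries, among them the defining markers Ptprc, Cd3e, Cd79a, Cd79b, Ms4a1 and Tyrobp. The other 3 were Cd74 (14.8 RPKM in HFD and 5.11 RPKM in control), Laptm5 (1.52 RPKM in HFD, listed at 0 in control) and Lyz2 (listed at 0 in HFD, 1.35 RPKM in control), and the list summed to 16.3 RPKM in HFD and 6.46 RPKM in control.

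The effector genes had a lower summed level in the HFD library, as deposited and under the 3 other scalings. Bax (ENSMUSG00000003873, chr7:45461697-45466898, minus strand) encodes the effector that moves from the cytosol to mitochondria and is a classical p53 target. It stood at 9.54 RPKM in HFD (8.61 to 10.5) and 20.1 RPKM in control (17.9 to 22.4), from about 383 estimated reads in HFD and 311 in control. The ratio was 0.475 (0.408 to 0.553), or 2.11-fold lower in HFD, with an interval below 1 that contained 0.5. Bak1 (ENSMUSG00000057789, chr17:27019810-27029009, minus strand) encodes the effector that resides in the outer membrane. It stood at 17.4 RPKM in HFD (16.4 to 18.5) and 20.3 RPKM in control (18.5 to 22.2), a ratio of 0.860 (0.772 to 0.960) that was above 1, at 1.05, with the libraries scaled to the total of protein-coding genes. The effectors had overlapping intervals in control, where Bak1 was 1.01 times Bax (0.874 to 1.17), but not in HFD, where Bak1 was 1.83 times Bax (1.63 to 2.06).

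The BH3-only genes went in different directions. Pmaip1 (ENSMUSG00000024521, chr18:66458533-66465565, plus strand) encodes NOXA, which binds MCL1 and promotes its degradation. It stood at 6.77 RPKM in HFD (6.18 to 7.41) and 3.11 RPKM in control (2.48 to 3.85), a ratio of 2.18 (1.72 to 2.79). Bad (ENSMUSG00000024959, chr19:6941861-6951899, plus strand) encodes a protein that binds BCL-XL and BCL2 and is held inactive in the cytosol when phosphorylated after insulin or growth factor signals. It stood at 17.3 RPKM in HFD (16.3 to 18.4) and 11.7 RPKM in control (10.4 to 13.1), a ratio of 1.48 (1.30 to 1.69). Bad was the most abundant BH3-only gene in both libraries. Bcl2l11 (ENSMUSG00000027381, chr2:128126038-128162547, plus strand) encodes BIM, a direct activator of the effectors. It stood at 3.88 RPKM in HFD and 3.19 RPKM in control, a ratio of 1.21 (1.05 to 1.41). Both Bad and Bcl2l11 were below 1, at 0.998 and 0.817, with each library's 20 most abundant genes left out of the total used as the scale.

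The remaining BH3-only genes were among the least abundant members in control. Bid (ENSMUSG00000004446, chr6:120891930-120916853, minus strand) encodes the protein that caspase-8 cleaves to link death receptors to mitochondria. It stood at 2.54 RPKM in HFD (2.22 to 2.89) and 2.67 RPKM in control (2.16 to 3.27), a ratio of 0.951 (0.745 to 1.22) whose interval contained 1, and 1.17 with the coding total as the scale. Bbc3 (ENSMUSG00000002083, chr7:16308393-16318205, plus strand) encodes PUMA, a p53 target that binds all anti-apoptotic members. It was listed at 0 in HFD and stood at 2.80 RPKM in control (2.13 to 3.62), from about 58.5 estimated reads; in the HFD library 1 RPKM of Bbc3 equals about 54.2 reads. Of the p53 targets listed in both libraries, Bax was thus lower and Pmaip1 higher in HFD.

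In the order of levels, Mcl1 was followed in the HFD library by Bak1, Bad, Bcl2l1, Bax, Pmaip1, Bcl2l11 and Bid. The intervals of Bak1 and Bad overlapped there, as did those of Bcl2l1 and Bax, and the other neighbours were separate. In control the order was Mcl1, Bak1, Bax, Bad, Bcl2l1, Bcl2l11, Pmaip1, Bbc3, Bid and Bcl2. Mcl1 and Bak1 were separate in control by a narrow margin (lower limit 22.25 RPKM against an upper limit of 22.18 RPKM). Bak1 and Bax overlapped, as did Bad and Bcl2l1, and each neighbouring pair among the 5 lowest members. Bax, whose interval overlapped that of Bak1 in control, thus stood below Bad and Bak1 in HFD.

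**Figure D2:**
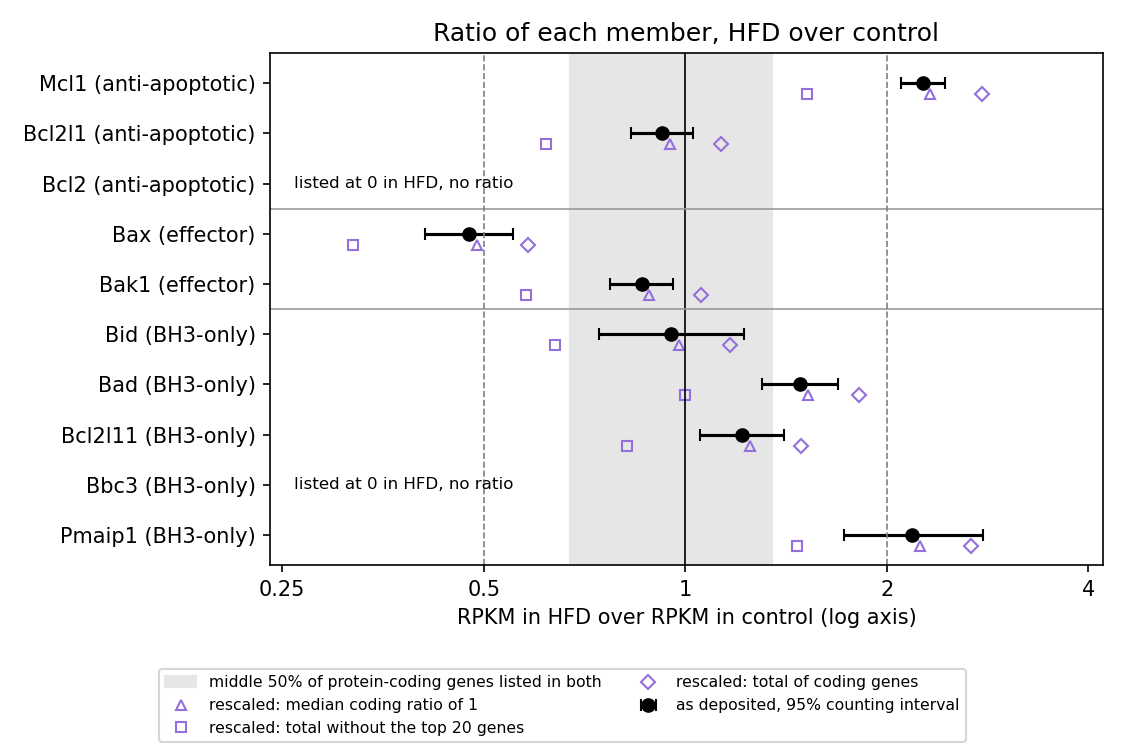
RPKM in HFD over RPKM in control (log axis) for the 8 BCL2 family members listed in both libraries, with approximate 95% counting intervals (black) and the ratio under 3 other scalings of the HFD library (open symbols); the grey band holds the middle 50% of protein-coding genes listed in both and dashed lines mark 2-fold. Mcl1 (2.26), Pmaip1 (2.18), Bax (0.475) and Bad (1.48) lie outside the band as deposited; the first 3 stay on their side of 1 under each scaling, whereas Bcl2l1, Bak1, Bid, Bad and Bcl2l11 lie on either side of 1 depending on the scaling.

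The scaling between the libraries moves all ratios together. With the total without each library's 20 most abundant genes as the scale, the median of all protein-coding genes moved from -0.11 to -0.58. Mcl1 then had a ratio of 1.52, Pmaip1 1.47 and Bax 0.319. Among protein-coding genes, 492 (4.11%) then passed 2-fold upward and 4534 (37.9%) downward, against 1188 and 2736 as deposited. Scaled to the total of protein-coding genes, that median was 0.14, with 1914 genes (16.0%) past 2-fold upward and 2265 (18.9%) downward, and the 3 ratios were 2.77, 2.67 and 0.582.

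Quotients between members of the same library do not depend on that scaling. They were chosen after the values of the members had been seen and describe these libraries only. Mcl1 stood at 5.66 times Bax in HFD (5.10 to 6.30) and 1.19 times Bax in control (1.04 to 1.36). Against Bak1 it stood at 3.09 times in HFD (2.90 to 3.31) and 1.18 times in control (1.05 to 1.32). The anti-apoptotic gene Mcl1 was therefore near the level of each effector in control and several times above each in HFD. Against its partner Pmaip1, by contrast, Mcl1 stood at 7.97 times in HFD (7.25 to 8.78) and 7.68 times in control (6.13 to 9.75), intervals that overlapped. Bcl2l1 stood at 1.07 times Bax in HFD (0.951 to 1.20) and 0.550 times in control (0.476 to 0.636).

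Summed by role, the anti-apoptotic genes held 64.2 RPKM in HFD and 37.3 RPKM in control, a ratio of 1.72. The effector genes held 27.0 RPKM in HFD and 40.4 RPKM in control, a ratio of 0.669. The BH3-only genes held 30.5 RPKM in HFD and 23.4 RPKM in control, a ratio of 1.30. With the 20 most abundant genes left out of the total, these ratios were 1.16, 0.450 and 0.875, so that of the BH3-only genes lay below 1; with the coding total they were 2.11, 0.819 and 1.60. As shares of the summed level of the 10 members, the anti-apoptotic genes made up 52.7% in HFD and 36.9% in control. The effectors made up 22.2% in HFD and 39.9% in control, and the BH3-only genes 25.1% in HFD and 23.2% in control. The anti-apoptotic sum was thus 2.38 times the effector sum in HFD and 0.924 times in control. Most of the anti-apoptotic sum of these members was Mcl1, which held 84.1% of it in HFD and 64.0% in control. The sums cover the 10 members only and leave out other family genes. Among those is the anti-apoptotic Bcl2l2 (16.6 RPKM in HFD and 12.5 RPKM in control). The pro-apoptotic Bok, a relative of Bax and Bak1, is left out as well (12.9 RPKM in HFD and 13.2 RPKM in control). Counted with the effectors, Bok would make that sum higher in both libraries. With Bcl2l2 included, the share of Mcl1 would be lower in both libraries. Entering the members listed at 0 as 1 RPKM gave 65.2 RPKM for the anti-apoptotic genes and 31.5 RPKM for the BH3-only genes in HFD.

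**Figure D3:**
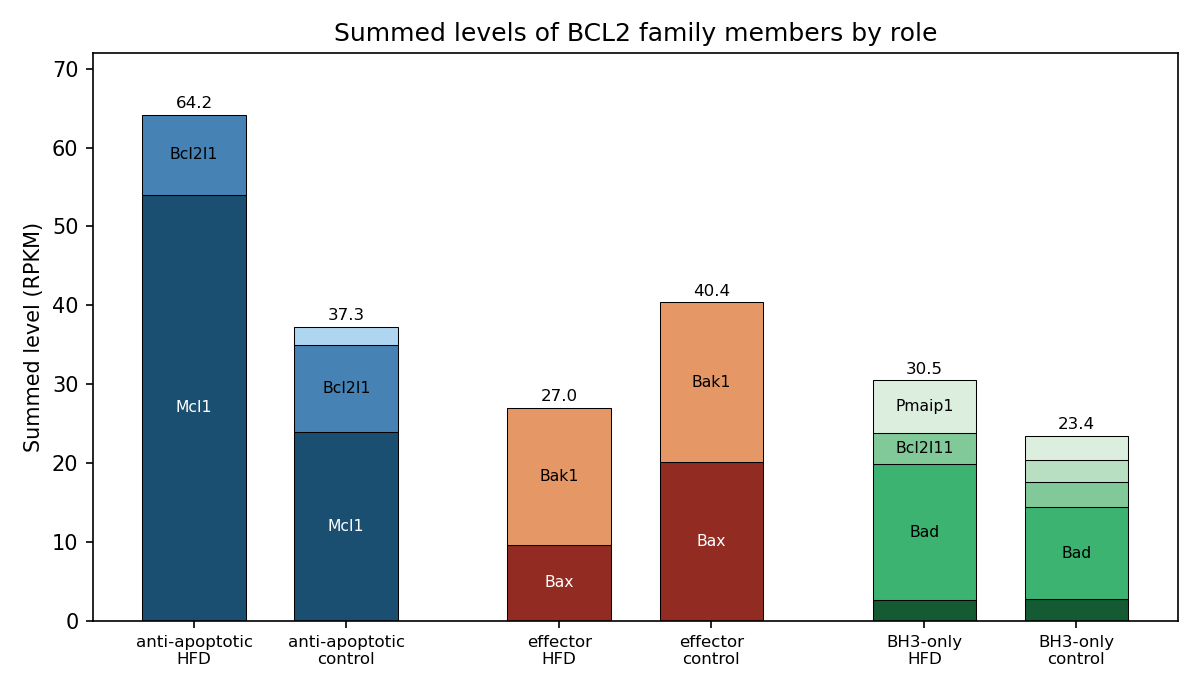
Summed level (RPKM) of the BCL2 family members by role, HFD left of control in each pair; segments are single genes, from the bottom Mcl1, Bcl2l1 and Bcl2, then Bax and Bak1, then Bid, Bad, Bcl2l11, Bbc3 and Pmaip1, and members listed at 0 add nothing. The BH3-only sum is the higher one in HFD as drawn but not with the 20 most abundant genes left out of the scale; the anti-apoptotic bar is 64.2 in HFD and 37.3 in control and the effector bar 27.0 in HFD and 40.4 in control.

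Several members share exon sequence with a gene on the opposite strand, and the sources used here do not say whether reads were counted by strand. Bad shares 524 exon bases (20.5% of its exons) with Gpr137, which stood at 7.44 RPKM in HFD and 10.5 RPKM in control. Bid shares 628 bases (17.7%) with Bcl2l13, which stood at 6.74 RPKM in HFD and 10.4 RPKM in control, above Bid in both libraries. Bak1 shares 437 bases (18.2%) with Ggnbp1 and 177 with a second entry of that symbol, and Bcl2 558 bases (6.09%) with D630008O14Rik. Reads of these stretches cannot be assigned to a strand here, so the values of Bad, Bid, Bak1 and Bcl2 are uncertain. For Bid, whose overlapping gene is the more abundant, the uncertainty can exceed the share of bases. Mcl1, Bcl2l1, Bcl2l11, Bbc3 and Pmaip1 share no exon base with another annotated gene. Bax shares 192 bases (12.2%) with Gm45808 on its own strand. Reads of that stretch cannot be assigned to a single gene even when counted by strand. No value for Gm45808 was found, so the value of Bax is uncertain as well.

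As deposited, none of the other BCL2 family genes passed 2-fold, although Bnip3 did so at 2.04 with a median coding ratio of 1, Bnip3 at 2.43 and Bmf at 2.20 with the coding total, and Bcl2l12 at 0.416 and Bcl2l13 at 0.434 with the 20 most abundant genes left out. Of 15 such genes 13 had an identifier in the tables and 9 were listed, all in both libraries, with 5 higher and 4 lower in HFD and a median of 0.38, which was -0.15 with the 20 most abundant genes left out of the scale. Bcl2l2, which encodes the anti-apoptotic BCL-W, was the most abundant at 16.6 RPKM in HFD and 12.5 RPKM in control (ratio 1.33, 1.21 to 1.46). Bnip3, a mitophagy receptor with a BH3-like region, had the highest ratio at 1.98 (1.52 to 2.62; 5.89 RPKM in HFD and 2.97 RPKM in control). Bcl2l12 had the lowest at 0.618 (0.414 to 0.933; 1.33 RPKM in HFD and 2.15 RPKM in control). Bcl2l10, Bcl2a1b, Hrk and Bcl2l15 were listed at 0 in both libraries.

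Downstream of the effectors, all 10 genes of the apoptosome and caspase list were listed in both libraries, 5 higher and 5 lower in HFD and none past 2-fold, with a median of -0.05 that was 0.17 with the coding total as the scale. The executioner gene Casp6 was the most abundant, at 73.9 RPKM in HFD and 82.6 RPKM in control. Casp8, which encodes the initiator that cleaves BID, had the lowest ratio of the list, 0.565 (0.495 to 0.645; 7.57 RPKM in HFD and 13.4 RPKM in control). Among 7 caspase inhibitors and their antagonists, all listed in both libraries, 4 were higher and 3 lower in HFD, 1 and 2 of them past 2-fold. The shares over protein-coding genes listed in both were 47.8% higher, 7.00% over 2-fold higher and 12.5% over 2-fold lower. The median of the 7 was 0.09 (-0.45 with the 20 most abundant genes left out). Birc6 was the most abundant at 16.0 RPKM in HFD and 15.0 RPKM in control. Birc3, an inhibitor induced by NF-kB, stood at 4.24 RPKM in HFD and 1.37 RPKM in control (ratio 3.10, 2.40 to 4.06).

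The genes of the inhibitor list past 2-fold in the other direction were Birc5 and Diablo. Birc5, survivin, which also acts in mitosis, stood at 3.27 RPKM in HFD and 9.25 RPKM in control (ratio 0.354, 0.300 to 0.417). Beside it, all 7 proliferation markers were lower in HFD, 6 of them over 2-fold. Of protein-coding genes listed in both libraries, 47.8% were higher and 12.5% over 2-fold lower. The 7 markers summed to 73.7 RPKM in HFD and 198 RPKM in control, with none at 0. Their part in the Birc5 value was not tested. Diablo, the mitochondrial antagonist of the inhibitors that leaves through BAX and BAK pores, stood at 2.71 RPKM in HFD and 5.69 RPKM in control (ratio 0.476, 0.412 to 0.550).

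**Figure D4:**
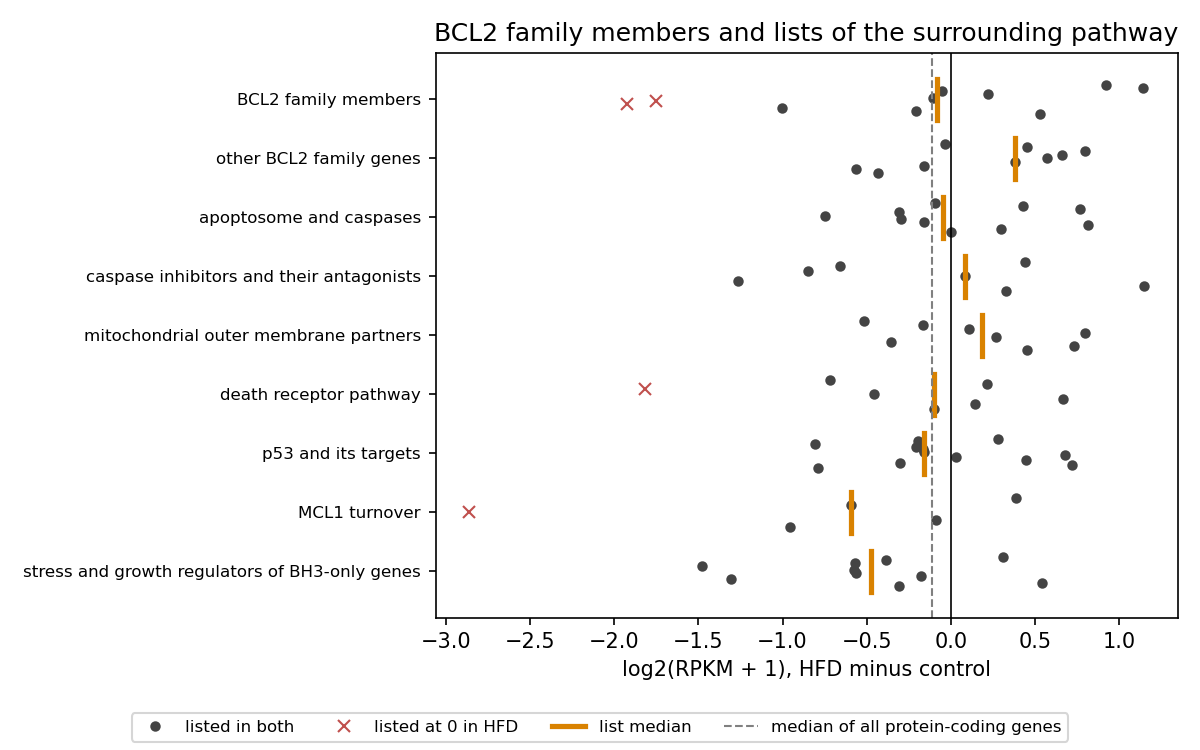
Difference of each listed gene between the libraries, log2(RPKM + 1) in HFD minus control, for the BCL2 family members and 8 lists of the surrounding pathway; dots are genes listed in both libraries, crosses genes listed at 0 in HFD, orange bars list medians and the dashed line the median of all protein-coding genes (-0.11). The members spread on both sides of 0 around a median of -0.08, a median that is 0.16 with the coding total as the scale; the MCL1 turnover median of -0.59 is -0.34 without March5, the gene of that list at 0 in HFD.

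Of 8 mitochondrial genes of channels, membrane shape and cell death, not all of the outer membrane, 5 were higher and 3 lower in HFD. None passed 2-fold, and the median was 0.19 (-0.33 with the 20 most abundant genes left out). Vdac1, the main outer membrane channel, stood at 69.1 RPKM in HFD and 64.0 RPKM in control. Opa1, which keeps cristae closed around cytochrome c, had the highest ratio at 1.80 (1.67 to 1.93) and Vdac3 the lowest at 0.685 (0.634 to 0.740). Of the 7 death receptor genes 6 were listed in both libraries, 3 higher and 3 lower, 1 of them (Fas) barely past 2-fold upward. Among protein-coding genes listed in both, 47.8% were higher and 7.00% over 2-fold higher. The median over all 7 was -0.10, over the 6 it was 0.02, and over all 7 with the coding total it was 0.14. Tnfrsf1a, the TNF receptor, was the most abundant at 30.1 RPKM in HFD and 25.8 RPKM in control. Fas, a death receptor gene, stood at 2.84 RPKM in HFD and 1.42 RPKM in control, a ratio of 2.0002 (1.34 to 3.09). The adaptor gene Tradd had a ratio of 0.580 (0.495 to 0.680) and Tnfrsf10b was listed at 0 in HFD against 2.52 RPKM in control.

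Since Bax, Bbc3 and Pmaip1 are p53 targets, p53 and 11 genes of its pathway were set beside them. Of these 12, all listed in both libraries, 5 were higher and 7 lower in HFD, 1 of the 7 over 2-fold. Beside these counts stand 47.8% higher and 12.5% over 2-fold lower among protein-coding genes listed in both. The median of the 12 was -0.16, and 0.04 with the coding total as the scale. Perp, an apoptosis-linked membrane protein gene, was the most abundant at 49.7 RPKM in HFD and 30.8 RPKM in control, and Ccng1 had the highest ratio at 1.68 (1.55 to 1.81). Aen had the lowest at 0.465 (0.386 to 0.560). Trp53 itself stood at 4.09 RPKM in HFD and 7.91 RPKM in control (ratio 0.517, 0.446 to 0.601), and Cdkn1a, the cell cycle inhibitor, at 28.1 RPKM in HFD and 34.9 RPKM in control. The genes of this list thus went in both directions.

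Of 5 genes grouped under MCL1 protein turnover, 4 were listed in both libraries, 3 lower and 1 higher in HFD. Of these 4, 1 was past 2-fold downward, and their median was -0.34. Of all protein-coding genes listed in both, 47.8% were higher and 12.5% over 2-fold lower. With March5, which was listed at 0 in HFD, the median was -0.59, and -0.38 on the scale of the coding total. Huwe1, the ubiquitin ligase that binds MCL1 through a BH3 motif, was the most abundant at 17.5 RPKM in HFD and 18.6 RPKM in control. Usp9x, the deubiquitinase that stabilises MCL1, had a ratio of 1.34 (1.27 to 1.42). Fbxw7, a substrate receptor for MCL1 degradation, stood at 1.85 RPKM in HFD and 4.52 RPKM in control (ratio 0.410, 0.350 to 0.480). The ligase gene March5 stood at 6.27 RPKM in control. Trib1, the other gene of the group, had a ratio of 0.586 (0.501 to 0.686), and its link to MCL1 turnover was not checked.

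Of 10 regulators that act on BH3-only genes or proteins, 8 were lower in HFD, 2 of them past 2-fold, and 2 higher, beside 12.5% over 2-fold lower and 47.8% higher among protein-coding genes listed in both libraries. The median was -0.47 (-0.19 with the coding total). Ywhae, a 14-3-3 protein gene of the kind that holds phosphorylated BAD in the cytosol, was the most abundant at 95.4 RPKM in HFD and 142 RPKM in control. Atf4, the stress-response factor that can induce Pmaip1, had the highest ratio at 1.46 (1.39 to 1.53; 134 RPKM in HFD and 92.1 RPKM in control). Ddit3, which encodes CHOP, an ATF4 target and regulator of Bcl2l11 and Bcl2, had the lowest at 0.304 (0.224 to 0.413; 1.81 RPKM in HFD and 5.95 RPKM in control). Pim3, a kinase gene whose product can phosphorylate BAD, stood at 12.4 RPKM in HFD and 36.3 RPKM in control (ratio 0.341, 0.309 to 0.376).

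Fibroblast, smooth muscle and pancreatic acinar markers also differed between the libraries. The 7 fibroblast and smooth muscle markers were all lower in HFD, 6 of them over 2-fold. Of protein-coding genes listed in both libraries, 47.8% were higher and 12.5% over 2-fold lower. These 7 markers summed to 57.5 RPKM in HFD and 264 RPKM in control, with none at 0. The 7 pancreatic acinar markers summed to 1797 RPKM in HFD and 13497 RPKM in control, with Ctrb1, Cela2a, Pnlip, Cpa1 and Prss2 listed at 0 in HFD. Nearly all of both sums was a single gene, Clps (1790 RPKM in HFD and 12989 RPKM in control). The part of these cell types in the lower value of Bax and in the Bcl2 and Bbc3 listings at 0 was not tested. With 1 library a diet it cannot be told apart from the diet.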

How the data were processed

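The authors deposited 1 table per library in a column headed RPKM, per the file headers. As deposited, the values were log2 of RPKM computed by the authors, with 0 read as at or below 1 RPKM; the log scale and the floor were inferred from the values (largest 18.2 on the log2 scale, smallest listed 1.00 RPKM in each library). Per the submitters' processing notes, bedtools 2.25.0 and mm10 were used; aligner, counting rule and annotation are not stated in those notes. Per the labels' protocols, ribosomal RNA was removed before library preparation.

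Symbols and exon lengths were taken from GENCODE M21, with RefSeq synonyms for symbols not found there; 36308 of 38087 identifiers matched. Depth was estimated from the step of 1 read in single-exon genes. Of values up to 40 reads, 41.6% in HFD and 32.3% in control were whole within 0.005 read, and for multi-exon genes 25.5% and 10.4%, so estimated reads are approximate. Ratio intervals are exact conditional binomial and level intervals exact Poisson, at 95%. Differences over all genes are log2(RPKM + 1). With 1 library per diet no test was run. The calculations were tested on simulated data. Python 3.11.15, numpy 2.4.6, pandas 2.3.3 and scipy 1.17.1 were used.

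Named are all members and, per list, the most abundant gene and both extremes of the ratio among genes of at least 50 estimated reads. Diablo, Pim3, March5, Trib1, Trp53, Cdkn1a, Tnfrsf10b, Polr2d and Emc2 were added after their values were seen. Of the genes this rule names, 1 is not reported here. Members and lists were chosen with earlier results of these data known. Other scalings, pseudocounts and minimums were tried.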

Additional observations from a re-analysis of the deposited data

How the results depend on the processing

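With each library's 20 most abundant genes left out of the scale, the median of the 10 members was -0.53 and 0 members were over 2-fold higher, against -0.08 and 2 as deposited. Over the 6 members of at least 5 RPKM in either library the median was 0.21 and 1 member was over 2-fold lower, against 3; Pmaip1 passes that minimum only through HFD. Over the 5 members with a mean of at least 5 RPKM, chosen after seeing the data, the median was -0.11, with 1 member over 2-fold higher and 1 lower. Over the 8 members listed in both libraries, also chosen after seeing the data, it was 0.08, with 2 higher and 1 lower. With the coding total the median was 0.16 and 2 members were over 2-fold lower, Bax standing at 0.582. The sign of the median thus depends on scaling and filter. A pseudocount of 0.1 RPKM, a 0 entered as 1 RPKM, no filter, and a median coding ratio of 1 left both counts at 2 and 3. Of the 8 ratios, 4 were above 1 as deposited, 2 without the most abundant genes and 7 with the coding total. The ratios of Mcl1, Pmaip1 and Bax kept their side of 1 under the 3 other scalings. No paired analysis was possible because each diet has 1 library with no replicate number; for the same reason no library could be left out. Depth limits Bbc3, Pmaip1 and Bid most, with 58.5, 83.5 and 93.3 estimated reads in control.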
